A study of Mus musculus with 73 samples.

Results

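The imprinted domain around Jade1 on mouse chromosome 3 was followed through 3 genes, taken by name from the 30546 genes of the deposited table. These were Jade1, which encodes a PHD-finger protein, and 2 long noncoding RNA (lncRNA) genes that precede it, 2400006E01Rik and Platr4. In mm10 coordinates, as deposited, Platr4 spanned chr3:41487681-41493199, 2400006E01Rik spanned chr3:41500931-41528474 and Jade1 spanned chr3:41555734-41616864. The spans did not overlap and were separated by 7731 bp and 27259 bp. RefSeq places 2400006E01Rik on the minus strand and Jade1 on the plus strand, so this pair points away from each other. All 3 genes passed the filter on low reads in every comparison made, which for each gene numbered 21 of the allelic ratio, 10 of the total level and 8 of the level of each parental allele.

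Jade1 protein is a scaffold subunit of the HBO1 complex, in which the acetyltransferase Kat7 modifies histones. 2400006E01Rik carries the RefSeq synonym lncRNA-JADE, and Platr4 belongs to a set of noncoding RNAs named as pluripotency-associated transcripts. A canonical imprint is laid down as DNA methylation in a parent's germ cells and is kept in nearly all tissues. A noncanonical imprint silences the maternal allele of a few genes without such germline methylation. It starts from Polycomb-deposited histone H3 lysine 27 methylation in the oocyte and persists mainly in tissues of the placental lineage.

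RNA was sequenced from epiblast, which forms the embryo proper, and from extraembryonic ectoderm (ExE), a trophoblast tissue that contributes to the placenta, of single mouse embryos at embryonic day 6.5. The wild type comprised BDF1xCAST embryos (mother first), with 7 libraries per tissue, and CASTxBDF1 embryos of the reciprocal cross, with 4 per tissue. BDF1 is a C57BL/6 by DBA hybrid and CAST a wild-derived strain. Knockout embryos were BDF1xCAST zygotes injected with Cas9 mRNA and several guides against exons of the target, so each embryo is its own editing event and not a member of 1 mutant line. Both epiblast and ExE of an embryo descend from the injected zygote. The targets were the maintenance DNA methyltransferase gene Dnmt1 (3 epiblast, 3 ExE libraries), the histone H3 lysine 9 methyltransferase genes Ehmt2 and Ehmt1 together (G9a-Glp, 6 and 8), the Polycomb PRC1 gene Rnf2 (6 and 5) and the Polycomb PRC2 gene Eed (9 and 10). All BDF1xCAST embryos, the wild type included, came from sperm injection and embryo transfer, whereas the reciprocal cross was mated naturally, so direction of cross and mode of fertilisation cannot be told apart.

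The 72 libraries held 1141414 to 17653087 reads over strain polymorphisms. The Rnf2 libraries were the deepest, apart from the ExE of Rnf2 embryo 5 with 1847681 reads. Of autosomal reads, 56.1% to 58.6% were assigned to BDF1, depending on the library. The 8 ExE markers summed to 346 to 1364 CPM (read counts scaled to a common library total) in ExE libraries and to 40.8 to 285 CPM in epiblast libraries, and the 7 epiblast markers to 1732 to 6014 CPM in epiblast and 489 to 1304 CPM in ExE. In CASTxBDF1 epiblast the 9 visceral endoderm markers summed to 5.79 to 2474 CPM (median 24.6, n = 4). Their part in the results of the reciprocal cross was not tested. Eed stood at 2.81 to 19.8 CPM in all 19 Eed libraries, against 38.1 to 248 CPM in the 14 wild-type BDF1xCAST libraries. The target was not below the second-lowest wild-type library in 6 knockout libraries, namely ExE of Rnf2 embryos 2, 5 and 6, epiblast of G9a-Glp embryos 2 and 7, and ExE of Dnmt1 embryo 1. In G9a-Glp epiblast this was judged on Ehmt1 alone. Ehmt2, the G9a gene, stood at 3.07 CPM there and in wild-type BDF1xCAST epiblast alike, so its loss could not be read from any epiblast library. Below, a target is called reduced if it lay under the second-lowest wild-type library, which need not be outside the wild-type range. Tests of the 3 genes that rest on the 6 libraries are also given without them, and other genes are given with all libraries.

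The windows below show what the starts of the genes look like, from 250 bases before to 50 bases after each annotated start (RefSeq, GRCm38.p6, the mm10 assembly). Of the 3 genes 2 had entries, 1 window for 2400006E01Rik and 4 for Jade1, and Platr4 had none. CG dinucleotides, the sites of DNA methylation, are in capitals, and the rest is in lower case. Each sequence is written 5′ to 3′ on the strand of its gene. The windows are that of 2400006E01Rik at chr3:41528425-41528724 (minus strand), that of the most upstream Jade1 start at chr3:41555484-41555783 (plus strand), and that of an internal Jade1 start at chr3:41563501-41563800 (plus strand), the richest in CG of the 4.
2400006E01Rik: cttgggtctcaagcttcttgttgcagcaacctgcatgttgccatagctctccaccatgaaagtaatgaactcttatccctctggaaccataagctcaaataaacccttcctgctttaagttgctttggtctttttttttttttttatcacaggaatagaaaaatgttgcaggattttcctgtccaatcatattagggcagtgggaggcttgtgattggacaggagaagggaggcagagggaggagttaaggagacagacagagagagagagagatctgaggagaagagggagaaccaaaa
Jade1 upstream start: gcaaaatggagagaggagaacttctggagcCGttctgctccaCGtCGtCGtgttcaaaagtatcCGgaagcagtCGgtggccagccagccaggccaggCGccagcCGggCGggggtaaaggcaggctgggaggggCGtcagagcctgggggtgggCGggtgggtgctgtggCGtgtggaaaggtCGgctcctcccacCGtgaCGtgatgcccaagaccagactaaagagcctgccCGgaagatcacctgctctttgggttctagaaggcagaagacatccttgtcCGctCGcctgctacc
Jade1 internal start: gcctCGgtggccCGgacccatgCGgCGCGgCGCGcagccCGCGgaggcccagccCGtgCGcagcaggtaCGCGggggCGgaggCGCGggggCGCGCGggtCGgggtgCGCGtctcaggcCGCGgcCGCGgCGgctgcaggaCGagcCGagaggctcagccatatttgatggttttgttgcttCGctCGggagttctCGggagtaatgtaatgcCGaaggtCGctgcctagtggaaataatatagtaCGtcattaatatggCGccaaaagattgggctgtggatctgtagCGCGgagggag
The 2400006E01Rik window held 0 CG, as did 5.43% of the 32851 promoter windows of the table, whose median was 7. The upstream Jade1 window held 18 CG and the internal one 38, more than 70.3% and 95.05% of all windows. Searched on both strands, the motif CCAAT occurred 2 times in the 2400006E01Rik window and 1 time in the internal Jade1 window, and 37.4% of all windows held it. TATAAA was found in none of the 5 windows and in 13.6% of all windows.

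In wild-type ExE, all 3 genes were read mostly from the father. In epiblast, Jade1 had mean maternal shares near 50%, whereas both lncRNAs already favoured the father. Jade1 had a maternal share of reads of 47.7% ± 8.90 (SD, n = 7) in BDF1xCAST epiblast, ranging from 31.4% to 58.1% with a median of 47.9%. The 4 CASTxBDF1 epiblasts had 37.1%, 53.0%, 45.5% and 50.5%. In BDF1xCAST ExE the Jade1 share ranged from 3.66% to 8.75% with a median of 5.23%, and in the reciprocal cross it was 7.47%, 10.5%, 8.95% and 7.91%. The 2 tissues did not overlap in either cross, and the highest ExE library lay far below the lowest epiblast library.

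2400006E01Rik was the gene read most strongly from the father in both tissues. Its maternal share ranged from 6.90% to 15.3% (median 13.02%, n = 7) in BDF1xCAST epiblast and from 0.962% to 3.85% (median 1.98%) in ExE. In CASTxBDF1 it was 9.48%, 16.0%, 16.2% and 3.09% in epiblast and 1.90%, 10.6%, 3.09% and 1.12% in ExE. CASTxBDF1 embryo 2 therefore stood apart in ExE with 10.6%. Over all autosomal reads this embryo also had the lowest BDF1 share of its group in both tissues. It was 56.1% in ExE (others 57.2% to 57.3%) and 56.4% in epiblast (others 57.8% to 58.1%). The part of this in its maternal shares was not tested. The groups did not overlap between tissues in BDF1xCAST but did in CASTxBDF1.

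Platr4 leaned to the father in both tissues of most wild-type embryos. Its maternal share ranged from 11.9% to 33.3% (median 26.9%, n = 7) in BDF1xCAST epiblast, on 12 to 52 reads a library, and from 4.44% to 19.1% (median 14.3%) in ExE, on 77 to 116 reads, and the tissues overlapped. The 4 CASTxBDF1 epiblasts had 32.1%, 62.2%, 18.4% and 19.7%, and their ExE had 4.71%, 12.3%, 10.6% and 6.25%. Embryo 2 of that cross, at 62.2% on 37 reads, was the only wild-type epiblast above 50% for either lncRNA.

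**Figure D1:**
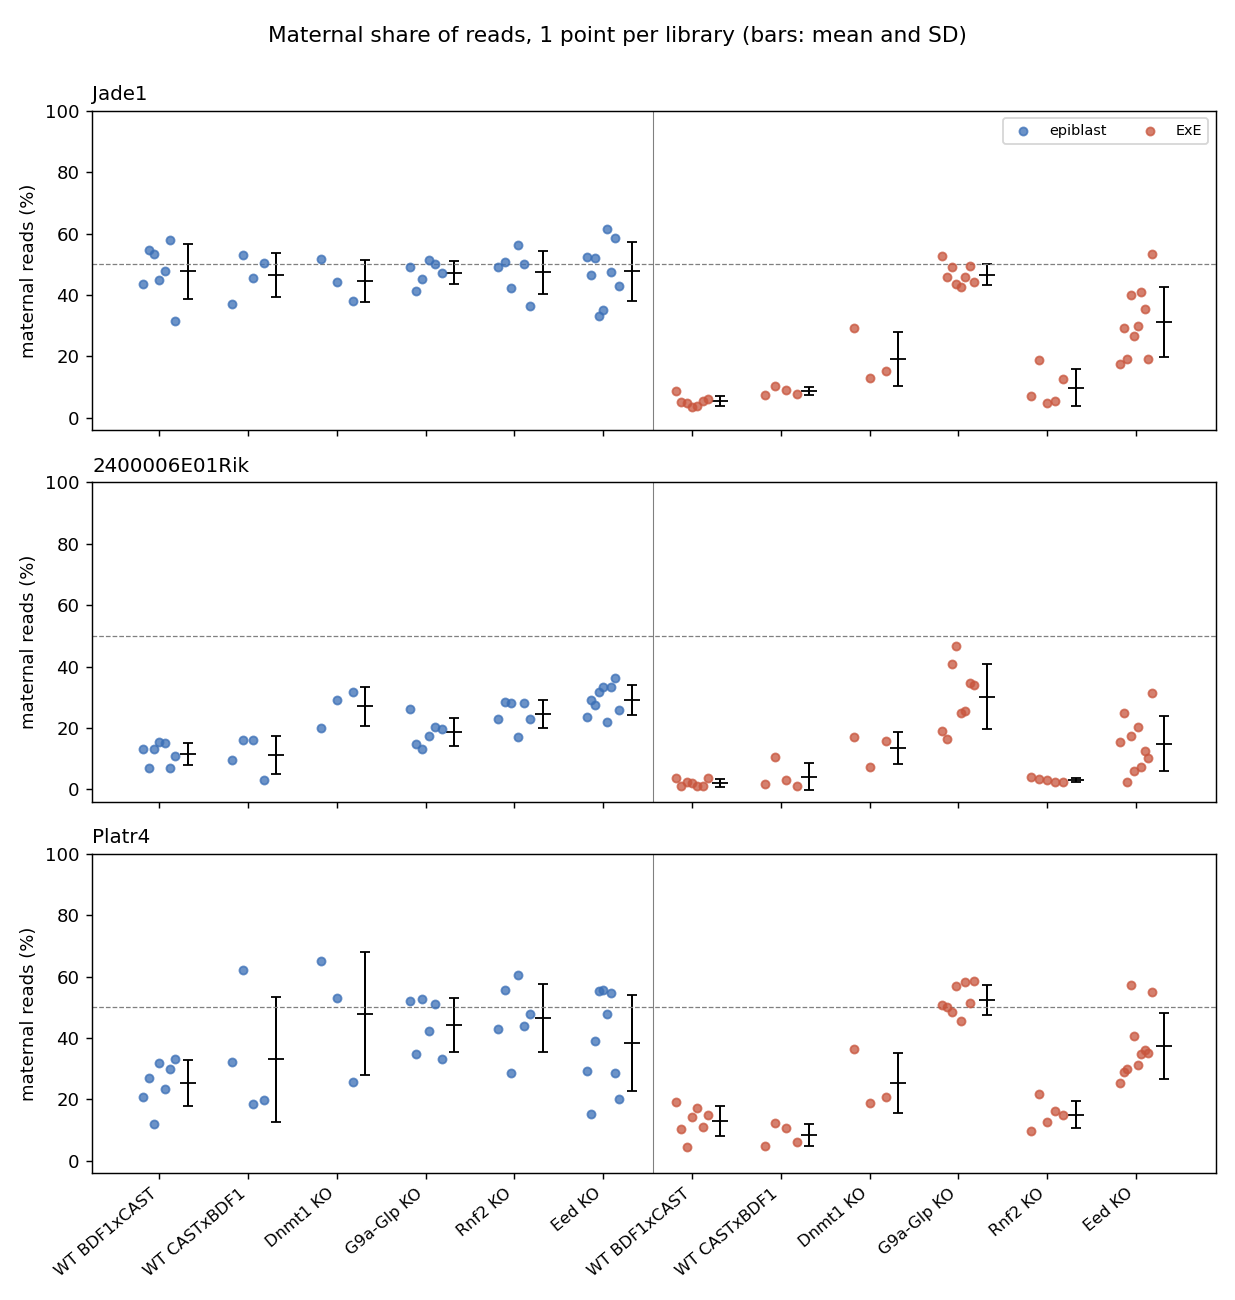
Maternal share of reads (%, vertical axis) of the 3 genes in each library, by genotype, cross and tissue. Points are libraries, black bars are the mean and SD, and the dashed line marks 50%. Jade1 sits near 50% in all epiblast groups and at 3.66% to 10.5% in wild-type ExE, while in G9a-Glp knockout ExE all 8 libraries lie between 42.6% and 52.8%.

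The reciprocal crosses separate parent from strain, and the parental term was tested with edgeR's quasi-likelihood test as the log2 maternal-to-paternal ratio. In epiblast 2 of the 3 genes passed, where 0.319% of the 8469 genes tested did. The log2 ratio was -2.95 ± 0.18 (SE) for 2400006E01Rik (edgeR adjusted p = 3.59e-10) and -1.35 ± 0.27 for Platr4 (adjusted p = 0.0246). For Jade1 it was -0.14 ± 0.15, with a 95% interval from -0.44 to 0.16 (adjusted p = 1.0). In ExE all 3 passed, where 0.844% of 8654 genes did. The log2 ratio was -4.96 ± 0.22 for 2400006E01Rik (adjusted p = 3.8e-12), -3.73 ± 0.12 for Jade1 (adjusted p = 5.28e-14) and -3.06 ± 0.17 for Platr4 (adjusted p = 1.19e-10). The Platr4 call in epiblast was lost with limma (adjusted p = 0.106) and without any 1 of 6 libraries (adjusted p up to 0.267, without CASTxBDF1 embryo 4).

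The difference between tissues was itself tested over both crosses, and all 3 genes passed, where 0.317% of 7568 genes did. The maternal-to-paternal ratio was lower in ExE than in epiblast by 12.1-fold for Jade1 (log2 -3.60 ± 0.19, edgeR adjusted p = 5.96e-14). It was lower by 4.08-fold for 2400006E01Rik (log2 -2.03 ± 0.34, adjusted p = 0.00138) and by 3.31-fold for Platr4 (log2 -1.72 ± 0.33, adjusted p = 0.00676). Within single embryos the maternal share was lower in ExE than in the epiblast of the same embryo in all 7 BDF1xCAST and all 4 CASTxBDF1 embryos, for each of the 3 genes.

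The wild-type bias was also read along the chromosome. Of the 23 other genes of the table within 1 Mb, 11 had enough reads for the test in ExE and 1 passed, against the 0.844% of all genes given above. That gene was Gm40040, a lncRNA gene at chr3:41474907-41484004 on the far side of Platr4, with a log2 parental ratio of -2.64 ± 0.42 (edgeR adjusted p = 0.000874). It was thinly read, with a median of 13 reads per BDF1xCAST ExE library. The other 10 neighbours had log2 ratios between -0.26 and 0.64 and the smallest adjusted p was 0.706. They included Sclt1 on the far side of Jade1, a centriole protein gene, with a log2 ratio of 0.10 ± 0.15. In epiblast 10 neighbours could be tested and none passed with edgeR, while 1 had an unadjusted p under 0.05. Of all genes 0.319% passed in epiblast.

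**Figure D2:**
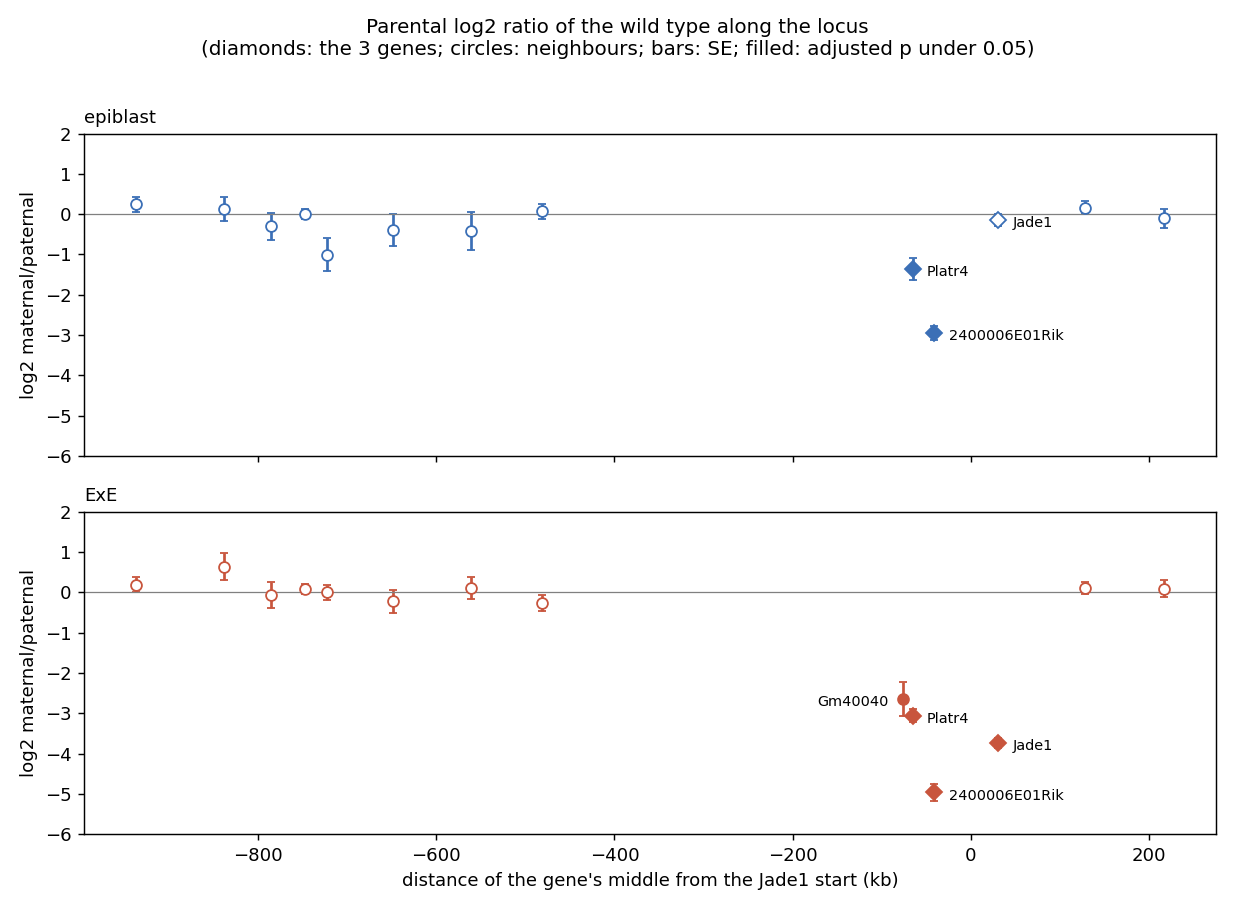
Parental log2 ratio (maternal over paternal, vertical axis) in wild-type epiblast and ExE against the distance of each gene's middle from the Jade1 start (kb, horizontal axis). Diamonds are the 3 genes, circles are neighbours within 1 Mb, bars are SE and filled symbols passed the edgeR test. In ExE the 4 filled symbols stand together, from Gm40040 to Jade1, and the other 10 genes lie between -0.26 and 0.64.

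Total levels, counted over both alleles, were higher in ExE than in epiblast for Jade1 and Platr4. Jade1 rose from 31.0 ± 4.84 CPM in BDF1xCAST epiblast to 72.0 ± 17.7 CPM in ExE (n = 7 each). It ranged from 26.7 to 38.0 CPM (median 29.1) against 55.0 to 107 CPM (median 64.5), with no overlap. Platr4 ranged from 6.72 to 19.0 CPM (median 12.2) against 28.7 to 41.1 CPM (median 30.9), also with no overlap. 2400006E01Rik ranged from 41.9 to 117 CPM (median 73.3) against 73.1 to 138 CPM (median 93.8), and the tissues overlapped. These values count reads over polymorphisms without dividing by transcript length, so they are compared between samples and not between genes.

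In BDF1xCAST 2 of the 3 genes passed, where 56.7% of 9340 genes did, so the calls by themselves stand near the background. Jade1 was 2.37-fold higher in ExE (log2 1.25 ± 0.17, edgeR adjusted p = 7.26e-06) and Platr4 2.57-fold (log2 1.36 ± 0.23, adjusted p = 6.75e-05). In CASTxBDF1, where 45.0% of 9767 genes passed, Jade1 was 1.73-fold higher (log2 0.79 ± 0.23, adjusted p = 0.0126) and Platr4 3.83-fold (log2 1.94 ± 0.32, adjusted p = 0.000318). For 2400006E01Rik the log2 difference was 0.42 ± 0.21 (adjusted p = 0.0928) and 0.50 ± 0.30 (adjusted p = 0.19) in the respective crosses. With the embryo as a block, which pairs the tissues of 1 animal, the second of these passed (log2 0.57, adjusted p = 0.0316) and the first did not (adjusted p = 0.106). Unblocked, the first passed without the epiblast of BDF1xCAST embryo 3 (adjusted p = 0.0228) and the second without that of CASTxBDF1 embryo 2 (adjusted p = 0.0137). In bulk tissue, fewer cells reading a gene and less RNA per cell cannot be told apart.

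Split by parent, the Jade1 difference between tissues in BDF1xCAST lay on opposite sides. Its maternal allele stood at 14.9 ± 3.82 CPM in epiblast and 3.91 ± 1.53 CPM in ExE, and its paternal allele at 16.1 ± 3.03 and 68.1 ± 17.1 CPM (n = 7 each). Neither allele overlapped between tissues, since maternal Jade1 ranged from 8.39 to 19.7 CPM against 2.23 to 6.88 CPM, and paternal Jade1 from 11.3 to 19.8 CPM against 52.2 to 103 CPM. These allele levels across tissues are given without a test.

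**Figure D3:**
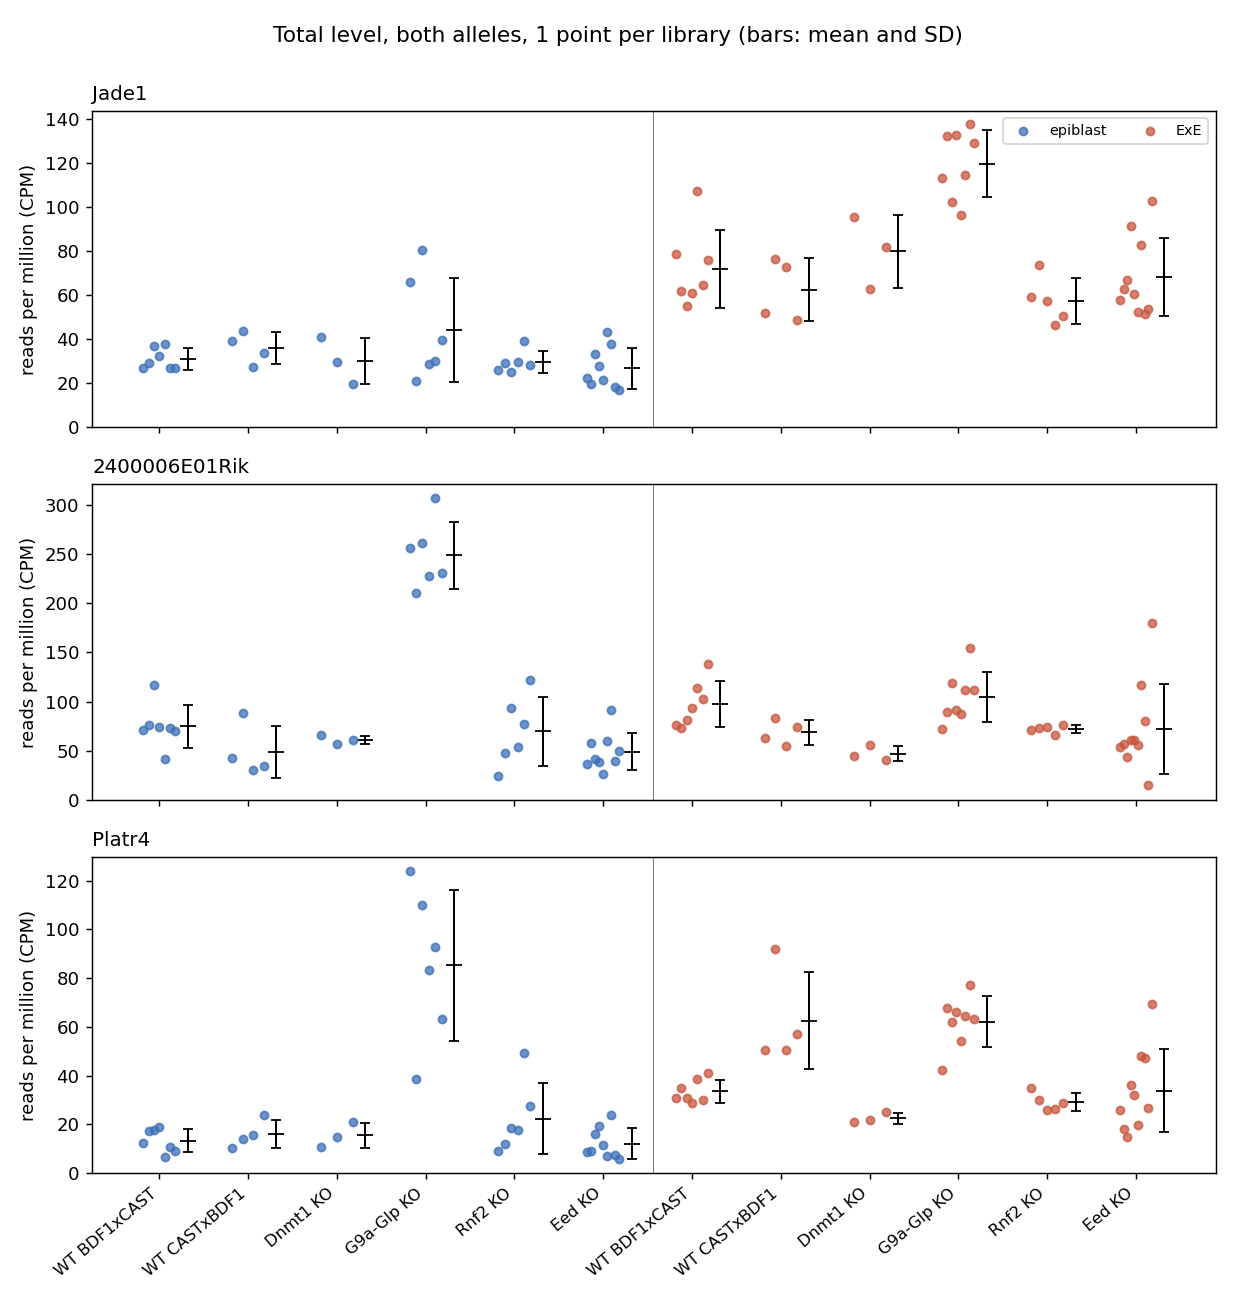
Total level (CPM over both alleles, linear vertical axis from 0) of the 3 genes in each library, by genotype, cross and tissue, with mean and SD as black bars. The 6 G9a-Glp knockout epiblasts stand highest for 2400006E01Rik, at 211 to 307 CPM, and Jade1 is highest in G9a-Glp knockout ExE, at 96.2 to 138 CPM.

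The reference for every knockout was the wild type of the same cross and tissue. The 4 comparisons of a tissue share their 7 wild-type libraries, so their values are set side by side and are not independent of each other. Among ExE samples, the G9a-Glp knockouts had mean maternal shares of 46.6% for Jade1, 52.5% for Platr4 and 30.2% for 2400006E01Rik. The Eed knockouts had 31.2%, 37.5% and 14.8% for the same genes, with a wide spread between embryos. Maternal shares averaged 19.3%, 25.4% and 13.4% in Dnmt1 and 9.79%, 15.0% and 3.02% in the libraries labelled Rnf2, against 5.44%, 13.03% and 2.15% in the wild type.

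In G9a-Glp ExE the Jade1 maternal share ranged from 42.6% to 52.8% (median 45.8%, n = 8). That of 2400006E01Rik ranged from 16.5% to 46.6% (median 29.9%), and that of Platr4 from 45.5% to 58.7% (median 51.1%). All 8 embryos lay above all 7 wild-type embryos for each gene, and 2400006E01Rik was the one that stayed below 50% in all 8. All 3 genes passed, where 1.1% of 8731 genes did. The log2 change of the maternal-to-paternal ratio was 3.91 ± 0.17 for Jade1 (edgeR adjusted p = 8.48e-15), 4.28 ± 0.33 for 2400006E01Rik (adjusted p = 1.97e-09) and 2.87 ± 0.23 for Platr4 (adjusted p = 4.49e-09).

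Of the parental alleles, the maternal one passed for all 3 genes and the paternal one for none. Maternal Jade1 rose from 3.91 ± 1.53 CPM (n = 7) to 55.8 ± 8.05 CPM (n = 8), a 13.6-fold difference (log2 3.77 ± 0.22, edgeR adjusted p = 1.46e-10). Maternal 2400006E01Rik was 14.7-fold higher (log2 3.88 ± 0.42, adjusted p = 1.86e-06) and maternal Platr4 7.06-fold (log2 2.82 ± 0.27, adjusted p = 3.68e-07), and 11.1% of 9223 genes passed this test. The paternal alleles had log2 differences of -0.15 ± 0.16 for Jade1, -0.46 ± 0.19 for 2400006E01Rik and -0.04 ± 0.17 for Platr4. None of these 3 passed with edgeR, 1 had an unadjusted p under 0.05, and 9.74% of 9181 genes passed. The 95% interval for paternal Jade1 ran from -0.46 to 0.16. Paternal 2400006E01Rik passed without embryo 9 of the knockout (adjusted p = 0.027).

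The total level in G9a-Glp ExE rose for Jade1, from 72.0 ± 17.7 to 120 ± 15.4 CPM (log2 0.68 ± 0.15, edgeR adjusted p = 0.00591), and for Platr4, from 33.6 ± 4.76 to 62.1 ± 10.3 CPM (log2 0.83 ± 0.16, adjusted p = 0.00163). These were 2 of 3 genes where 15.1% of 9228 did. For 2400006E01Rik it was 97.2 ± 23.3 against 105 ± 25.4 CPM (log2 0.05 ± 0.20, 95% interval -0.34 to 0.44). Decidua markers, listed to mark maternal tissue, summed to 0.00 to 2.78 CPM in G9a-Glp ExE and were at 0 in wild-type BDF1xCAST ExE. Of these 5 markers, 4 were at 0 in all 8 G9a-Glp ExE libraries, and the fifth was Pgr. The same list summed to 4.35 to 16.8 CPM in wild-type BDF1xCAST epiblast, where Pgr was highest with a mean of 8.71 CPM. Reads of Pgr therefore need not mark maternal tissue here. Visceral endoderm markers summed to 20.3 to 139 CPM (median 54.5) in G9a-Glp ExE against 12.8 to 27.5 CPM (median 20.1) in the wild type, with 0 and 1 of 9 markers at 0 throughout. Their part in these results was not tested.

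In Eed ExE the Jade1 maternal share ranged from 17.6% to 53.5% (median 29.6%, n = 10) and that of Platr4 from 25.4% to 57.1% (median 35.1%), and all 10 embryos lay above the wild type for both. 2400006E01Rik ranged from 2.52% to 31.3% (median 14.1%), and embryo 3 alone lay within the wild-type range. Embryo 10 was the highest for Jade1 and 2400006E01Rik, and embryo 4 for Platr4. All 3 genes passed, where 2.65% of 8959 did. The log2 change of the ratio was 3.00 ± 0.32 for Jade1 (edgeR adjusted p = 4.08e-07), 2.97 ± 0.44 for 2400006E01Rik (adjusted p = 7.69e-05) and 2.07 ± 0.30 for Platr4 (adjusted p = 6.78e-05).

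In Eed ExE the maternal alleles of all 3 genes rose, and the paternal alleles of Jade1 and Platr4 fell. Maternal Jade1 was 5.40-fold higher than in the wild type (log2 2.43 ± 0.40, edgeR adjusted p = 9.71e-05), maternal 2400006E01Rik 5.64-fold (log2 2.50 ± 0.68, adjusted p = 0.00694) and maternal Platr4 2.92-fold (log2 1.55 ± 0.45, adjusted p = 0.0106). Without knockout embryo 10 the maternal 2400006E01Rik difference was log2 1.65 (adjusted p = 0.0119). All 3 passed where 33.5% of 10055 genes did. Paternal Jade1 fell by 0.74 on the log2 scale (SE 0.15, adjusted p = 0.000715), from 68.1 ± 17.1 to 45.5 ± 6.76 CPM. Paternal Platr4 fell by 0.66 (SE 0.25, adjusted p = 0.0452), a call lost without any 1 of 12 libraries (adjusted p up to 0.11, without wild-type embryo 8). Paternal 2400006E01Rik had a log2 difference of -0.77 ± 0.32 (adjusted p = 0.069), and passed without embryo 7 or 10 of the knockout (adjusted p = 0.0275 and 0.00896). These were 2 of 3 genes where 33.2% of 10033 passed.

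The totals of all 3 genes in Eed ExE differed from the wild type by log2 -0.22 ± 0.19 for Jade1, -0.52 ± 0.34 for 2400006E01Rik and -0.10 ± 0.29 for Platr4. None passed with edgeR or DESeq2, 0 had an unadjusted p under 0.05, and 40.8% of 10058 genes passed. Total 2400006E01Rik was the most uneven, with 15.3 CPM in embryo 9 and 180 CPM in embryo 10, and it passed without embryo 10 (adjusted p = 0.0173). The Eed ExE libraries also differed from the wild type in other markers. The trophoblast giant cell and ectoplacental cone list summed to 292 to 5394 CPM against 1.79 to 1129 CPM, nearly all of it Plac1, with 2 of its 4 measured markers at 0. The 8 ExE markers summed to 346 to 653 CPM against 601 to 1160 CPM, and the 5 decidua markers to 0.391 to 7.47 CPM against 0. The decidua marker with the highest mean in Eed ExE was Hand2, at 0.799 CPM. Visceral endoderm markers summed to 38.7 to 77.5 CPM against 12.8 to 27.5 CPM, with no overlap. Medians were 659 against 990 CPM for the epiblast markers and 11.3 against 30.1 CPM for the early mesoderm markers. The part of these in the results was not tested.

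In Dnmt1 ExE the Jade1 maternal share was 29.4%, 13.1% and 15.3%, that of 2400006E01Rik 17.05%, 7.37% and 15.8%, and that of Platr4 36.6%, 18.9% and 20.7%. All 3 embryos lay above the wild type for Jade1 and 2400006E01Rik, and 2 of the 3 for Platr4. The log2 change of the ratio was 2.07 ± 0.33 for Jade1 (edgeR adjusted p = 0.00135), 2.77 ± 0.43 for 2400006E01Rik (adjusted p = 0.00123) and 1.16 ± 0.44 for Platr4 (adjusted p = 0.396), which is 2 of 3 genes where 0.856% of 7708 passed. Dnmt1 reads stood at 47.9 CPM in embryo 1 and at 34.5 and 5.16 CPM in the other 2. The wild-type ExE range was 35.7 to 62.2 CPM, so the value of 34.5 CPM lay just below it. Without embryo 1 the change was 1.54 for Jade1 (adjusted p = 0.0508) and 2.54 for 2400006E01Rik (adjusted p = 0.0329). Both calls missed the threshold with limma (adjusted p = 0.0671 and 0.0531).

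The paternal alleles of both lncRNAs fell. Paternal 2400006E01Rik fell by 1.48 on the log2 scale in Dnmt1 ExE (SE 0.26, edgeR adjusted p = 0.00197), from 95.1 ± 22.5 CPM (n = 7) to 37.2, 51.4 and 34.4 CPM. All 3 values lay below the lowest wild-type value of 72.4 CPM. Paternal Platr4 fell by 1.04 (SE 0.24, adjusted p = 0.00877), with 13.2, 17.5 and 19.8 CPM against 24.6 to 35.0 CPM. These were 2 of 3 genes where 12.6% of 9661 passed, and paternal Jade1 had a log2 difference of -0.35 ± 0.22 (adjusted p = 0.332). On the maternal side Jade1 was 3.49-fold higher (log2 1.80 ± 0.41, adjusted p = 0.00958), the 1 of 3 genes to pass where 13.4% of 9741 did. Maternal 2400006E01Rik, with a log2 difference of 1.24 (adjusted p = 0.16), passed without wild-type embryo 8 (adjusted p = 0.0354). Without embryo 1 neither maternal Jade1 (log2 1.13, adjusted p = 0.141) nor paternal Platr4 (adjusted p = 0.0579) passed, and paternal 2400006E01Rik did (log2 -1.44, adjusted p = 0.0152).

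In total, 2400006E01Rik fell by 1.31 on the log2 scale in Dnmt1 ExE (SE 0.26, edgeR adjusted p = 0.00391) and Platr4 by 0.83 (SE 0.22, adjusted p = 0.0186), and 18.5% of 9749 genes passed. The Platr4 call was lost without any 1 of the 3 knockout embryos (adjusted p up to 0.0731, without embryo 2, and 0.0723 without embryo 1). The 2400006E01Rik total was log2 -1.30 without embryo 1 (adjusted p = 0.0231). Jade1 differed by log2 -0.10 ± 0.22 (95% interval -0.54 to 0.34).

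In the libraries labelled Rnf2 ExE the Jade1 maternal share was 7.08%, 18.9%, 4.72%, 5.497% and 12.8% in embryos 2, 4, 5, 6 and 7. That of 2400006E01Rik was 4.02%, 3.31%, 2.90%, 2.42% and 2.44%, and that of Platr4 was 9.88%, 21.8%, 12.5%, 16.2% and 14.9%. Jade1 was above the wild-type range in embryos 4 and 7, which are also the 2 libraries below the second-lowest wild-type library in Rnf2 reads. No Rnf2 ExE library lay below the lowest wild-type one (lowest values 21.9 and 21.4 CPM), so loss of Rnf2 could not be read from them. 2400006E01Rik was above its wild-type range in embryo 2 alone, a library without reduced Rnf2, and Platr4 in embryo 4 alone. None of the 3 genes passed with edgeR or limma, 1 had an unadjusted p under 0.05, and 0.922% of 9002 genes passed. The log2 change of the ratio was 0.97 ± 0.35 for Jade1 (95% interval 0.29 to 1.66, adjusted p = 0.273), 0.50 ± 0.31 for 2400006E01Rik (-0.10 to 1.099) and 0.24 ± 0.31 for Platr4 (-0.37 to 0.85). With embryos 4 and 7 alone, Jade1 passed (log2 1.72, adjusted p = 0.0109), while 2400006E01Rik (log2 0.42, adjusted p = 0.952) and Platr4 (log2 0.58, adjusted p = 0.891) did not. That split was chosen after seeing the data and keeps the 2 embryos above the wild-type range for Jade1. Since it does not mark loss of Rnf2, the pass is no test of an Rnf2 effect.

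The level tests in the libraries labelled Rnf2 ExE passed for none of the 3 genes. Totals differed by log2 -0.38 ± 0.18 for Jade1, -0.50 ± 0.18 for 2400006E01Rik and -0.25 ± 0.16 for Platr4. None passed with edgeR, 2 had an unadjusted p under 0.05, 1 passed with DESeq2 (2400006E01Rik, adjusted p = 0.0392), and 22.2% of 9506 genes passed. 2400006E01Rik also passed without wild-type embryo 1 or 2 (edgeR adjusted p = 0.0367 and 0.0437). Paternal Jade1 and 2400006E01Rik had log2 differences of -0.46 ± 0.17 (adjusted p = 0.0743) and -0.51 ± 0.18 (adjusted p = 0.06), where 15.7% of 9460 genes passed. None of the 3 paternal alleles passed with edgeR and 2 had an unadjusted p under 0.05, and paternal 2400006E01Rik passed without wild-type embryo 1 or 2 (adjusted p = 0.0351 and 0.0485). Maternal Jade1 had a log2 difference of 0.61 ± 0.42 (95% interval -0.21 to 1.42), where 16.2% of 9503 passed, and of the 3 maternal alleles none passed with edgeR or had an unadjusted p under 0.05. With embryos 4 and 7 alone none of the totals or single alleles passed. The totals there differed by log2 -0.28 for Jade1, -0.45 for 2400006E01Rik and -0.26 for Platr4, and maternal Jade1 by 1.32 (adjusted p = 0.109).

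**Figure D4:**
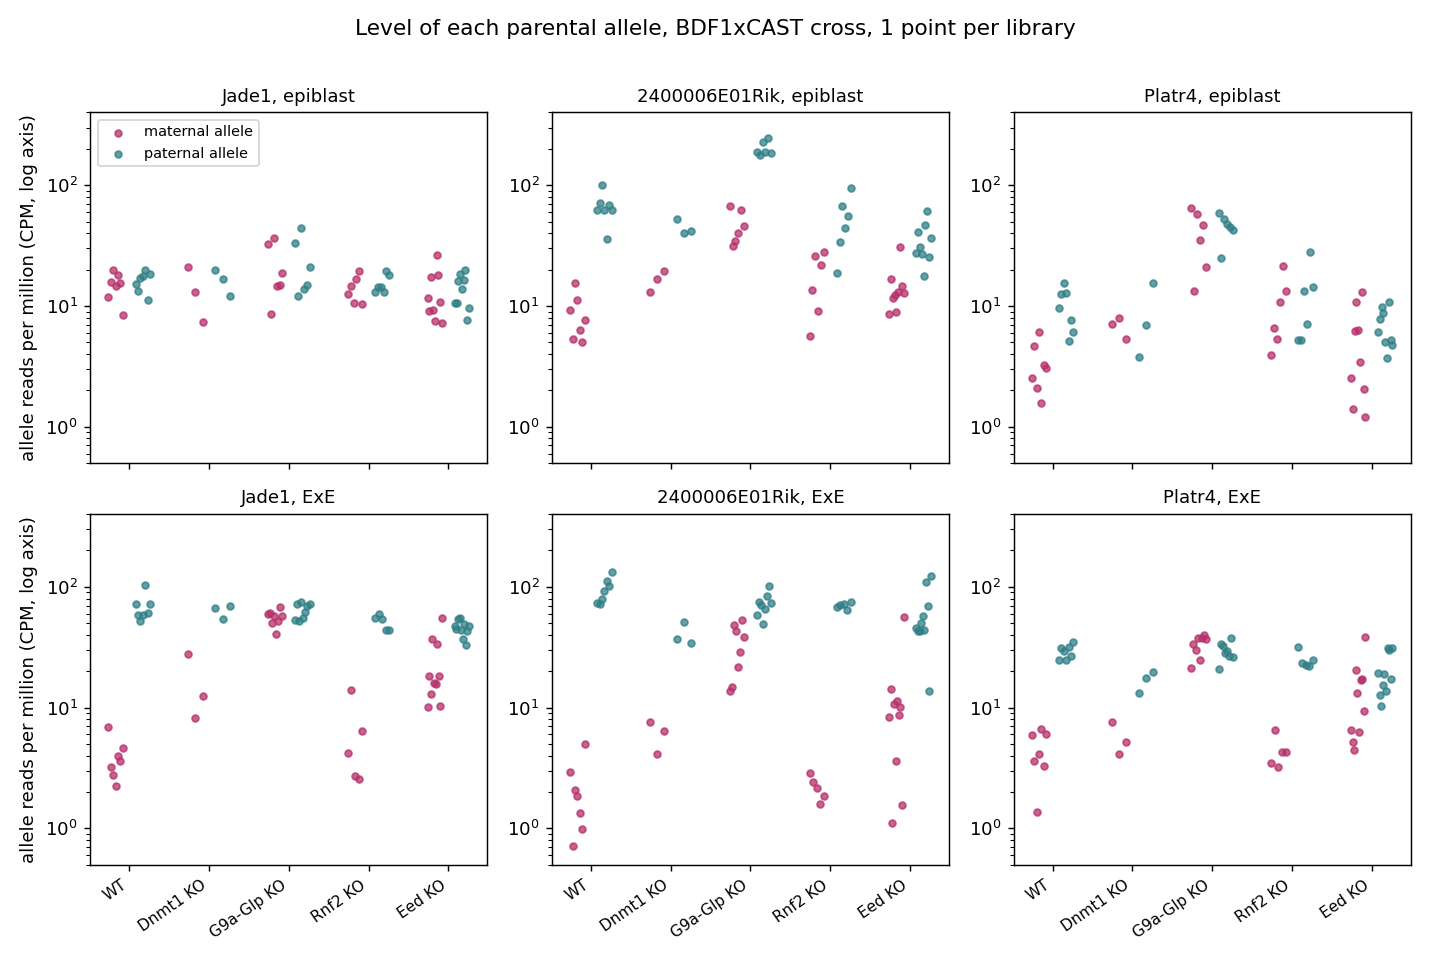
Level of the maternal and paternal allele (CPM, log vertical axis) of each gene in wild-type BDF1xCAST and knockout libraries, 1 point per library, epiblast above and ExE below. In G9a-Glp knockout ExE the maternal points of Jade1 rise to 41.0 to 67.9 CPM beside paternal points at 52.1 to 75.0 CPM, and in G9a-Glp knockout epiblast both alleles of the 2 lncRNAs lie higher than in the wild type.

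The 4 knockouts were also compared with each other in ExE, in 6 pairs, and these comparisons use no wild-type libraries but share knockout libraries with each other. G9a-Glp exceeded Rnf2 for all 3 genes, with log2 differences of the ratio of 2.94 ± 0.26 for Jade1, 3.78 ± 0.31 for 2400006E01Rik and 2.64 ± 0.23 for Platr4 (edgeR adjusted p of 2.25e-07, 1.24e-07 and 2e-07, with 0.686% of 9183 genes passing). Against the Rnf2 libraries with reduced Rnf2 alone they were 2.19, 3.86 and 2.29 (adjusted p = 7.78e-06, 4.97e-05 and 0.000126). G9a-Glp also exceeded Eed for Jade1 (log2 0.90 ± 0.23, adjusted p = 0.0301) and 2400006E01Rik (log2 1.31 ± 0.34, adjusted p = 0.0326), where 2.38% of 9133 passed. For Platr4 this difference was 0.79 ± 0.22 (adjusted p = 0.0568). It passed without Eed embryo 10 or 4 (adjusted p = 0.0109 and 0.0127). The Jade1 and 2400006E01Rik calls were lost with limma (adjusted p = 0.082 and 0.128), and each without any 1 of 8 libraries (adjusted p up to 0.0595 for Jade1, without Eed embryo 3, and up to 0.0805 for 2400006E01Rik, without G9a-Glp embryo 4).

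Rnf2 was below Eed for all 3 genes, with log2 differences of -2.04 ± 0.36, -2.47 ± 0.41 and -1.83 ± 0.30 for Jade1, 2400006E01Rik and Platr4 (edgeR adjusted p of 0.007, 0.00443 and 0.00373, with 0.253% of 10293 passing). All 3 calls were lost with limma (adjusted p = 0.104, 0.182 and 0.0924). They were also lost when the Rnf2 libraries without reduced Rnf2 reads were left out (adjusted p = 0.577, 0.114 and 0.263). Dnmt1 was below G9a-Glp for Jade1 (log2 -1.84 ± 0.25, adjusted p = 0.000223) and Platr4 (log2 -1.72 ± 0.32, adjusted p = 0.0094), where 0.399% of 7761 passed, and 2400006E01Rik differed by -1.51 ± 0.45 (adjusted p = 0.28). The Platr4 call was lost without Dnmt1 embryo 2 (adjusted p = 0.122) or 3 (adjusted p = 0.244). Without Dnmt1 embryo 1 the differences were -2.37 for Jade1 (adjusted p = 1.04e-05) and -2.14 for Platr4 (adjusted p = 0.00454), and -1.74 for 2400006E01Rik (adjusted p = 0.426).

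Dnmt1 exceeded Rnf2 for 2400006E01Rik only among the 3 genes (log2 2.27 ± 0.35, edgeR adjusted p = 0.0102, with 0.205% of 7788 passing). That call was lost with limma (adjusted p = 0.0927), without Dnmt1 embryo 1 (adjusted p = 0.102) or 3 (adjusted p = 0.15), and without the libraries lacking a reduced target (adjusted p = 0.18). Jade1 and Platr4 differed there by 1.09 ± 0.47 and 0.92 ± 0.43 (adjusted p = 0.522 and 0.571), and by -0.18 and 0.16 without those libraries (adjusted p = 0.956 and 0.981). Between Dnmt1 and Eed no gene passed with edgeR or limma, 2 had an unadjusted p under 0.05, and 0.681% of 7786 genes passed. The log2 differences were -0.94 (95% interval -1.77 to -0.10) for Jade1, -0.18 (-1.30 to 0.94) for 2400006E01Rik and -0.91 (-1.77 to -0.05) for Platr4. Without Dnmt1 embryo 1 they were -1.47, -0.41 and -1.33 (adjusted p = 0.337, 0.961 and 0.448).

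In epiblast the Jade1 ratio passed the test in none of the 4 knockouts, while the ratio of 2400006E01Rik shifted toward the mother in 3 of them. The Jade1 maternal share averaged 44.6% to 47.7% in the knockout groups and 47.7% in the wild type. Its log2 change was -0.16 ± 0.38 in Dnmt1, -0.05 ± 0.25 in G9a-Glp, -0.05 ± 0.27 in Rnf2 and -0.01 ± 0.27 in Eed. The intervals reached -0.90 and 0.59 in Dnmt1, the widest of the 4, so shifts within those bounds were not excluded there. In Eed 2 of the 9 epiblasts lay above the wild-type range for Jade1. Early mesoderm markers had medians of 513, 54.7 and 109 CPM in Dnmt1, Rnf2 and Eed epiblast. Their wild-type median was 432 CPM (11.6 to 1182 CPM). Visceral endoderm markers had medians of 42.9, 23.4 and 28.8 CPM in the same knockouts. Their wild-type median was 7.62 CPM (5.03 to 479 CPM). The part of either in the epiblast ratios was not tested.

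The 2400006E01Rik share in epiblast was 20%, 29.2% and 31.9% in Dnmt1. It ranged from 16.9% to 28.6% (median 25.5%, n = 6) in Rnf2, from 22.0% to 36.2% (median 29.3%, n = 9) in Eed and from 13.1% to 26.2% (median 18.7%, n = 6) in G9a-Glp. All Dnmt1, Rnf2 and Eed embryos lay above the wild-type maximum of 15.3%, and G9a-Glp embryos overlapped the wild type. The log2 change was 1.48 ± 0.34 in Dnmt1 (edgeR adjusted p = 0.036), 1.34 ± 0.24 in Rnf2 (adjusted p = 0.00879), 1.67 ± 0.23 in Eed (adjusted p = 4.81e-05) and 0.83 ± 0.23 in G9a-Glp (adjusted p = 0.0594). Without G9a-Glp embryos 2 and 7 the G9a-Glp value was 0.88 (adjusted p = 0.117). It passed without G9a-Glp embryo 3 or wild-type embryo 4 (adjusted p = 0.0268 and 0.0472). Of all genes 0.894%, 0.696%, 1.06% and 1.79% passed in these comparisons, and 1 of the 3 genes passed in each.

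In G9a-Glp that gene was Platr4, with a log2 change of 1.30 ± 0.31 (edgeR adjusted p = 0.0252), and its share ranged from 33.1% to 52.6% (median 46.6%, n = 6) against 11.9% to 33.3% in the wild type. Platr4 changes of similar size did not pass in Dnmt1 (1.39 ± 0.60, adjusted p = 0.488), Rnf2 (1.37 ± 0.38, adjusted p = 0.122) and Eed (1.05 ± 0.44, adjusted p = 0.384). With limma the calls were lost for 2400006E01Rik in Dnmt1 (adjusted p = 0.148) and Rnf2 (adjusted p = 0.0542) and for Platr4 in G9a-Glp (adjusted p = 0.125), and that in Eed was kept. The Dnmt1 call was lost without any 1 of 6 libraries (adjusted p up to 0.267, without Dnmt1 embryo 3). The Platr4 call in G9a-Glp was lost without any 1 of 5 libraries (adjusted p up to 0.0800, without wild-type embryo 3) and kept without embryos 2 and 7 together (adjusted p = 0.00857).

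**Figure D5:**
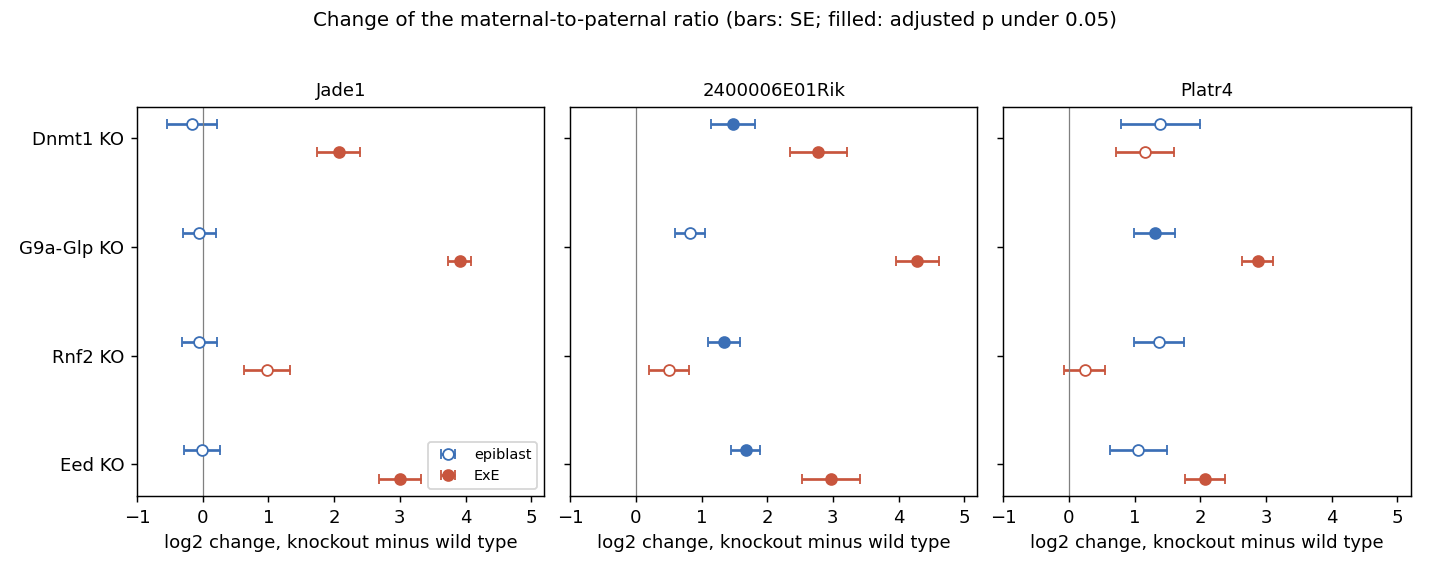
Log2 change of the maternal-to-paternal ratio (horizontal axis, knockout minus wild type) for each gene and knockout, blue for epiblast and red for ExE. Bars are SE and filled symbols passed the edgeR test. Jade1 is displaced in ExE but lies within 0.16 of 0 in all 4 epiblast comparisons, whereas 2400006E01Rik is displaced in both tissues of Dnmt1 and Eed.

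Whether the effect of a knockout on the ratio differed between tissues was tested as an interaction. In G9a-Glp it differed for Jade1 (log2 3.98 ± 0.28, edgeR adjusted p = 1.59e-12) and 2400006E01Rik (log2 3.46 ± 0.46, adjusted p = 8.99e-06), where 0.311% of 7709 genes passed, and for Platr4 it was 1.57 ± 0.41 (adjusted p = 0.0915, and 0.0346 without wild-type epiblast 3). Without epiblasts 2 and 7 the values were 3.93, 3.41 and 1.32 for Jade1, 2400006E01Rik and Platr4, and the same genes passed (adjusted p = 4.23e-11 and 5.58e-05, with 0.247 for Platr4). In Eed it differed for Jade1 (log2 2.99 ± 0.43, adjusted p = 2.58e-05), where 0.865% of 7978 passed, but for 2400006E01Rik it was 1.28 ± 0.52 (adjusted p = 0.401) and for Platr4 0.94 ± 0.52 (adjusted p = 0.644). In Dnmt1 the Jade1 interaction was 2.21 ± 0.50 (adjusted p = 0.164, with 0.0156% of 6405 passing), and it passed with the embryo as a block (log2 2.30, adjusted p = 0.0426). Without the block none of the 3 genes passed there with edgeR or limma, and 2 had an unadjusted p under 0.05. Leaving out embryo 1 in ExE gave 1.68 for Jade1 (adjusted p = 0.629). In Rnf2 the values were 0.97 ± 0.44 for Jade1, -0.84 ± 0.43 for 2400006E01Rik and -1.13 ± 0.50 for Platr4 (adjusted p = 0.64, 0.727 and 0.64, with 0.262% of 8023 passing). None passed with edgeR or limma, and 2 had an unadjusted p under 0.05. The Jade1 value was 1.77 with reduced-Rnf2 ExE libraries alone (adjusted p = 0.122) and -0.03 with the embryo as a block. In single embryos, Jade1 share was lower in ExE than in epiblast in 2 of 5 G9a-Glp and 7 of 9 Eed embryos, and in all 3 Dnmt1 and all 3 Rnf2 embryos. For 3 of the 9 Eed pairs the title numbers disagree with the embryo labels used here. The count was 5 of the 6 other pairs, and 8 of 9 when paired by title, where the labelled sex was alike in 7 of 9 pairs against 9 of 9 by embryo label.

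The highest mean levels of both lncRNAs in any group were in G9a-Glp epiblast, where the allelic ratio passed for Platr4 and not for 2400006E01Rik. 2400006E01Rik ranged from 211 to 307 CPM (median 244, n = 6) against 41.9 to 117 CPM in the wild type, and Platr4 from 38.5 to 124 CPM (median 87.9) against 6.72 to 19.0 CPM, with no overlap for either. Jade1 ranged from 20.8 to 80.3 CPM (median 34.9) against 26.7 to 38.0 CPM. The difference was 3.14-fold for 2400006E01Rik (log2 1.65 ± 0.19, edgeR adjusted p = 6.62e-06) and 6.05-fold for Platr4 (log2 2.60 ± 0.30, adjusted p = 6.13e-06), 2 of 3 genes where 34.6% of 9562 passed. For Jade1 it was 1.36-fold (log2 0.44 ± 0.28, 95% interval -0.10 to 0.99).

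Both parental alleles of the lncRNAs rose in G9a-Glp epiblast. Maternal 2400006E01Rik was 5.15-fold higher (log2 2.37 ± 0.30, edgeR adjusted p = 2.58e-05) and its paternal allele 2.87-fold (log2 1.52 ± 0.19, adjusted p = 3.96e-05). Maternal Platr4 was 11.3-fold higher (log2 3.50 ± 0.40, adjusted p = 9.86e-06) and its paternal allele 4.27-fold (log2 2.10 ± 0.28, adjusted p = 6.47e-05). The tests of the maternal and paternal allele were passed by 25.8% of 9559 and 24.8% of 9533 genes. Visceral endoderm markers summed to 9.41 to 300.3 CPM (median 72.2) in these 6 libraries against 5.03 to 479 CPM (median 7.62) in the wild type, with 0 of 9 markers at 0 throughout. The 4 early mesoderm markers summed to 19.7 to 195 CPM (median 78.5) against 11.6 to 1182 CPM (median 432). The part of either in these results was not tested. Without embryos 2 and 7 the maternal and paternal alleles were higher by log2 2.52 and 1.63 for 2400006E01Rik (adjusted p = 0.000142 and 0.000331) and by 3.87 and 2.30 for Platr4 (adjusted p = 4.6e-06 and 0.000181). In that setting the total was higher by log2 1.76 for 2400006E01Rik (adjusted p = 6.26e-05) and 2.88 for Platr4 (adjusted p = 5.67e-06).

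In the other epiblast knockouts the levels moved less. 2400006E01Rik fell by 0.79 on the log2 scale in Eed (SE 0.23, edgeR adjusted p = 0.0106), with 26.5 to 91.8 CPM (median 42.2, n = 9), overlapping the wild type, and 36.9% of 9820 genes passed. The paternal allele fell by 1.11 (SE 0.23, adjusted p = 0.00204, with 25.4% of 9796 genes passing), and the maternal allele had a log2 difference of 0.56 ± 0.31 (adjusted p = 0.188, with 27.7% of 9819 passing). Paternal Platr4 had a log2 difference of -0.74 in Eed (adjusted p = 0.0667) and passed without wild-type embryo 8 or Eed embryo 8 (adjusted p = 0.044 and 0.035). In Rnf2 maternal Platr4 was 2.98-fold higher (log2 1.58 ± 0.43, adjusted p = 0.0152, with 21.8% of 10133 passing). Maternal 2400006E01Rik had a log2 difference of 1.00 in Rnf2 (adjusted p = 0.0785) and passed without wild-type embryo 3 or Rnf2 embryo 1 (adjusted p = 0.0475 and 0.0276). Totals in Dnmt1 and Rnf2 epiblast passed for none of the 3 genes with edgeR or DESeq2, with 0 unadjusted p under 0.05, and 13.9% of 10248 and 31.1% of 10134 genes passed. The log2 differences of these totals ran from -0.51 ± 0.27 for 2400006E01Rik in Dnmt1 to 0.71 ± 0.37 for Platr4 in Rnf2. Of the single alleles in Dnmt1 epiblast none passed with edgeR. Of the maternal ones 0 had an unadjusted p under 0.05, where 8.81% of 10241 genes passed, and of the paternal ones 1 did, where 7.09% of 10211 passed. That 1 was 2400006E01Rik, with a log2 difference of -0.78 ± 0.28 (adjusted p = 0.114). Paternal alleles in Rnf2 epiblast had 0 of 3 passing with edgeR and 0 unadjusted p under 0.05, where 20.8% of 10114 genes passed.

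Set in order over the 12 groups, total Jade1 was highest in G9a-Glp ExE (120 ± 15.4 CPM). The other 5 ExE groups followed, from 79.9 ± 16.4 CPM in Dnmt1 to 57.4 ± 10.5 CPM in Rnf2, and then the 6 epiblast groups, from 44.2 ± 23.6 CPM in G9a-Glp to 26.7 ± 9.37 CPM in Eed. Only the step below the top exceeded the larger SD of its 2 neighbours. 2400006E01Rik was highest in G9a-Glp epiblast (249 ± 34.0 CPM) and the other 11 groups lay between 105 ± 25.4 and 47.1 ± 7.59 CPM with no step above the SD. Platr4 ran from 85.2 ± 31.1 CPM in G9a-Glp epiblast through 62.6 ± 19.8 CPM in CASTxBDF1 ExE and 62.1 ± 10.3 CPM in G9a-Glp ExE down to 12.1 ± 6.26 CPM in Eed epiblast.

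Among 3189 genes with a mean of at least 10 CPM and an SD of at least 0.5 over the 12 group means of log2(CPM + 1), the 5 whose level most resembled Jade1 were Foxn2, Mfsd1, Psmd5, Phf13 and Umad1 (Pearson r 0.937 to 0.968). For 2400006E01Rik they were Gm3134, Platr4, 2810408B13Rik, Magea10 and Platr25 (0.679 to 0.765). For Platr4 they were Gm3134, Platr14, Naa11, LOC108167542 and AI662270 (0.832 to 0.860), with 2400006E01Rik at rank 13. Gm3134 and LOC108167542 overlap on the genome and may share reads. Jade1 itself had r = 0.221 with 2400006E01Rik and 0.651 with Platr4 over the same 12 means, which share libraries and their depth between genes.

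By the maternal share over the 12 groups, among 6331 genes, the gene nearest to Jade1 was Gab1, with a root mean square difference of 5.41 percentage points, followed by Platr4 with 9.05. Gab1 encodes a signalling adaptor and is among the noncanonical genes listed next. Zfp473, Slc38a1 and Depdc7 came next at 14.9 to 17.4 points. Those nearest to Platr4 were Jade1 (9.05), Gab1 (10.7), Zfp473, Depdc7 and Slc38a1. Those nearest to 2400006E01Rik were Slc38a4 (8.79 points), an amino acid transporter gene with a paternal bias in both tissues, Gm32885, Fkbp6, Mcts2 and Snrpn-Snurf, with Platr4 at rank 10 and Jade1 at rank 12.

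The other noncanonical genes on a list of 5, namely Gab1, Sfmbt2, Smoc1 and Slc38a4, are given beside Jade1. In wild-type ExE all 4 passed toward the father, with a median log2 parental ratio of -6.91 against 0.01 over all genes tested. In G9a-Glp ExE and in Eed ExE all 4 shifted toward the mother, with median changes of 5.83 and 4.26 against -0.01 over all genes. In Dnmt1 ExE 2 of the 4 did, Sfmbt2 (log2 6.14 ± 1.02) and Slc38a4 (log2 5.70 ± 0.41), and in Rnf2 ExE also 2, Sfmbt2 (log2 7.34 ± 0.65) and Smoc1 (log2 3.25 ± 0.71). In the wild-type epiblast 3 of the 4 could be tested, and Slc38a4 alone passed (log2 -5.24 ± 0.32). Gab1 stood at 5.91% ± 2.87 maternal in wild-type BDF1xCAST ExE and 56.1% ± 3.35 in G9a-Glp ExE (n = 7 and 8). This list was chosen with results of these data known, so its direction is not independent evidence.

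The partners of Jade1 in the HBO1 complex were examined for the same bias. Of 10 listed genes, 6 besides Jade1 could be tested in ExE for the reciprocal crosses and none passed with edgeR or had an unadjusted p under 0.05, with a median log2 ratio of -0.00 against 0.01 over all genes. Of all genes 0.844% passed there. None of the 7 tested passed for the ratio in G9a-Glp or Eed ExE with edgeR, where 0 and 1 had an unadjusted p under 0.05 (medians -0.04 and -0.03 against -0.01 over all genes). Of all genes 1.1% and 2.65% passed in these comparisons. A count of 0 is therefore near the background in all 3 tests of the ratio. In level, the Jade1 paralogues differed between wild-type tissues in opposite directions. Jade3 was higher in ExE (log2 1.48 ± 0.19 in BDF1xCAST, 1.27 ± 0.25 in CASTxBDF1) and Jade2 lower (log2 -2.92 ± 0.24 and -5.28 ± 0.52). The catalytic gene Kat7 was higher by log2 0.62 ± 0.17 in BDF1xCAST ExE, where of the 8 partners tested 3 were higher and 3 lower, beside 28.3% and 28.4% of all genes. In CASTxBDF1 2 of 8 were higher and 1 lower, beside 22.0% and 23.0% of all genes. In G9a-Glp ExE none of the 8 partners passed in total level with edgeR, 1 had an unadjusted p under 0.05, and 15.1% of all genes passed, so a count of 0 in 8 is near the background.

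Among the neighbours within 1 Mb, Gm40040 was the gene that changed its allelic ratio in ExE. In G9a-Glp ExE 1 of 11 passed, Gm40040 (log2 4.01 ± 0.55), and its maternal share was 9.80% ± 12.2 in the wild type (n = 6) and 66.9% ± 8.95 in the knockout (n = 8). In Eed ExE it was again Gm40040 (log2 2.90 ± 0.67, edgeR adjusted p = 0.0127). In Dnmt1 and Rnf2 ExE none of 7 and none of 11 passed with edgeR, with 0 and 1 unadjusted p under 0.05. Of all genes 0.856% and 0.922% passed in these comparisons. In level, Gm40040 rose in G9a-Glp epiblast (log2 2.84 ± 0.43), as both lncRNAs did, and in G9a-Glp ExE (log2 1.66 ± 0.32), where Platr4 rose and total 2400006E01Rik did not pass. Slc25a31, a mitochondrial carrier gene, was higher in Rnf2 epiblast (log2 4.99 ± 0.38) and Rnf2 ExE (log2 3.62 ± 0.26). Of the 10 neighbours tested in epiblast 1, 3, 5 and 4 were lower in Dnmt1, G9a-Glp, Rnf2 and Eed, beside 7.02%, 15.0%, 12.8% and 18.9% of all genes, and 1 was higher in each. D3Ertd751e was lower in all 4, from log2 -0.87 ± 0.27 in Dnmt1 to -1.36 ± 0.18 in Eed.

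Embryos of 1 group could differ together in the 3 genes, and this was examined in ExE for the 3 BDF1xCAST groups of at least 6 embryos, in 9 relations of maternal share. No relation passed after adjustment. The strongest was that of Jade1 with Platr4 in Eed (Pearson r = 0.743, permutation p = 0.0229, adjusted p = 0.206, Spearman rho = 0.600, permutation p = 0.0712, adjusted p = 0.641, n = 10). Without the 2 embryos farthest from the median, r was 0.491. In G9a-Glp ExE, r between Jade1 and 2400006E01Rik was -0.222 (exact permutation p = 0.603, adjusted p = 0.603, Spearman rho = -0.167, exact permutation p = 0.703, adjusted p = 0.882, n = 8), and 0.0824 without the 2 farthest embryos.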

How the data were processed

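RNA-seq reads over strain polymorphisms were analysed for 72 libraries in 12 groups, named by the sample labels. The deposited table holds, per gene and library, the total count of reads over polymorphisms, an allelic ratio rounded by the authors (the CAST share) and a signed binomial score, per the file headers. The submitters' processing notes name STAR 2.5.0, HTSeq and mm10. Their settings are not given in the sources used here. Neither strand use in counting nor allele assignment was examined, so overlapping genes may share reads.

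Allele counts were recovered from each count, ratio and score (tolerance 0.0011 on the score). Of 712130 scores below the limit of 300, 99.99% were matched, and at the limit the rounded ratio was used. Shares needed at least 10 reads. Maternal-to-paternal ratios were tested with edgeR 4.0.16 (quasi-likelihood, R 4.3.3) with a term for each library, over autosomal genes that reached 10 reads in 3 or more libraries of every group compared. Levels used TMM factors. Tests were two-sided, with Benjamini-Hochberg adjustment over the tested genes and calls under 0.05. SEs derive from the F statistic, and 95% intervals are 1.96 SE wide on each side. Alternatives used limma 3.58.1 and DESeq2 1.42.0. Permutation tests used scipy 1.17.1, with 100000 resamples for groups of 10 or more embryos and exact enumeration below that. The code was tested on simulated data for 7 of the comparisons, and the level tests simulated total counts only, so the depth of single alleles was not covered.

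Tissues of 1 embryo come from the same animal per the labels (31 pairs, correlation of deviations -0.529 to 0.470). For 3 of these pairs, all Eed, title numbers disagree with the embryo labels used. Knockout and wild-type libraries share only a number. The 3 genes and the gene lists were chosen with earlier results of these data known. Named genes were the 3 genes, the targets, list members that passed, and the 5 nearest genes by level and by allelic pattern. Embryos are the replicates, and arose from separate zygotes. PCR duplicates cannot be told from independent molecules. A bisulfite library was not analysed here.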

Additional observations from a re-analysis of the deposited data

Results flagged for a closer look

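In 60 sets of values (a gene and measure in a group of 4 to 10 embryos), 2 had an extreme embryo by Dixon's criterion, which chance gives in about 1 in 20 groups. Jade1 stood at 39.3 CPM in the epiblast of Rnf2 embryo 6, the highest of that group. Platr4 stood at 91.9 CPM in the ExE of CASTxBDF1 embryo 2, the highest of its group, whose other embryos had 50.7, 50.7 and 57.1 CPM.

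The effect of a knockout on the maternal-to-paternal ratio differed between ExE and epiblast, by the interaction term, in 3 cases. The log2 difference was 3.98 for Jade1 and 3.46 for 2400006E01Rik in G9a-Glp, and 2.99 for Jade1 in Eed. The wild-type parental ratio differed between the tissues for all 3 genes, with log2 differences of -3.60 for Jade1, -2.03 for 2400006E01Rik and -1.72 for Platr4.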

How the results depend on the processing

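Values here are adjusted p, for the knockout against the wild type and for the allelic ratio unless another pair or quantity is named. For a pair of knockouts, over names the comparison and not its direction, and Rnf2 was below Eed and Dnmt1 below G9a-Glp. Of 141 results recomputed under alternatives, 105 kept their side of the threshold throughout, and of 2734 alternative values 2609 did, 89 lost a call and 36 gained one. No called value changed sign, while 64 values of 18 results that had not passed did. The cause of each change was not tested, other than fewer libraries where some were left out. Calls lost with DESeq2's size factors were Platr4 (paternal Eed ExE 0.052). Calls lost with all groups of a tissue in 1 fit were 2400006E01Rik (Dnmt1 ExE 0.0509) and Platr4 (G9a-Glp epiblast 0.0808, total Dnmt1 ExE 0.108). Calls lost with limma were Jade1 (Dnmt1 ExE 0.0671, G9a-Glp over Eed ExE 0.082, Rnf2 over Eed ExE 0.104), 2400006E01Rik (Dnmt1 over Rnf2 ExE 0.0927, Dnmt1 ExE 0.0531, Dnmt1 epiblast 0.148, G9a-Glp over Eed ExE 0.128, Rnf2 over Eed ExE 0.182, Rnf2 epiblast 0.0542) and Platr4 (G9a-Glp epiblast 0.125, Rnf2 over Eed ExE 0.0924, the reciprocal crosses in epiblast 0.106). Calls lost with the replicate block were Jade1 (G9a-Glp over Eed ExE 0.138), 2400006E01Rik (Dnmt1 epiblast 0.0605, G9a-Glp over Eed ExE 0.0832, Rnf2 epiblast 0.0781, paternal Eed epiblast 0.0665, total Eed epiblast 0.111) and Platr4 (Dnmt1 over G9a-Glp ExE 0.149, G9a-Glp epiblast 0.14, maternal Rnf2 epiblast 0.114, the reciprocal crosses in epiblast 1.0). Calls lost without the libraries whose target gene was not reduced were Jade1 (Dnmt1 ExE 0.0508, Rnf2 over Eed ExE 0.577, maternal Dnmt1 ExE 0.141), 2400006E01Rik (Dnmt1 over Rnf2 ExE 0.18, Rnf2 over Eed ExE 0.114) and Platr4 (Rnf2 over Eed ExE 0.263, paternal Dnmt1 ExE 0.0579, total Dnmt1 ExE 0.0723). Calls gained with DESeq2 were 2400006E01Rik (total Rnf2 ExE 0.0392). Calls gained with all groups of a tissue in 1 fit were 2400006E01Rik (G9a-Glp epiblast 0.0437). Calls gained with allele counts from the rounded ratio were 2400006E01Rik (G9a-Glp epiblast 0.047). Calls gained with no filter on low counts were 2400006E01Rik (maternal Rnf2 epiblast 0.048, paternal Eed ExE 0.0465, paternal Rnf2 ExE 0.0484). Calls gained with no filter on low reads were 2400006E01Rik (G9a-Glp epiblast 0.0198) and Platr4 (G9a-Glp over Eed ExE 0.0473). Calls gained with an offset from the reads of each allele were 2400006E01Rik (G9a-Glp epiblast 0.0465). Calls gained with the replicate block were Jade1 (Dnmt1 between tissues 0.0426) and 2400006E01Rik (paternal Dnmt1 epiblast 0.0329, paternal Eed ExE 0.0021, paternal G9a-Glp ExE 0.0442, total Eed ExE 0.0059, total between tissues in CASTxBDF1 0.0316). Calls gained without the libraries whose target gene was not reduced were Jade1 (Rnf2 ExE 0.0109). Without 1 library at a time, adjusted p for Jade1 ran as follows: Dnmt1 ExE 0.00057 to 0.0508, G9a-Glp over Eed ExE 0.00131 to 0.0595, maternal Dnmt1 ExE 0.00765 to 0.141. Without 1 library at a time, adjusted p for 2400006E01Rik ran as follows: Dnmt1 over Rnf2 ExE 0.00439 to 0.15, Dnmt1 epiblast 0.0315 to 0.267, G9a-Glp over Eed ExE 0.00345 to 0.0805, G9a-Glp epiblast 0.0268 to 0.158, maternal Dnmt1 ExE 0.0354 to 0.407, maternal Rnf2 epiblast 0.0276 to 0.196, paternal Eed ExE 0.00896 to 0.175, paternal G9a-Glp ExE 0.027 to 0.278, paternal Rnf2 ExE 0.0351 to 0.134, total Eed ExE 0.0173 to 0.458, total Rnf2 ExE 0.0367 to 0.127, total between tissues in BDF1xCAST 0.0228 to 0.235, total between tissues in CASTxBDF1 0.0137 to 0.427. Without 1 library at a time, adjusted p for Platr4 ran as follows: Dnmt1 over G9a-Glp ExE 0.00454 to 0.244, G9a-Glp over Eed ExE 0.0109 to 0.116, G9a-Glp epiblast 0.0121 to 0.0800, G9a-Glp between tissues 0.0346 to 0.213, paternal Dnmt1 ExE 0.00789 to 0.0579, paternal Eed ExE 0.011 to 0.11, paternal Eed epiblast 0.035 to 0.164, the reciprocal crosses in epiblast 0.000731 to 0.267, total Dnmt1 ExE 0.019 to 0.0731. The replicate block pairs embryos that share only a number between genotypes or crosses (of 39 and 8 pairs, 10 and 2 had a correlation over 0.1), and pairs 1 animal between tissues. It could not be fitted for Dnmt1 against Rnf2 in ExE, which share only number 2. Leaving out the libraries with an unreduced target was chosen after seeing the data. The number of all genes called moved by over 1.5 times in 14 of 21 comparisons with limma, in 17 of 46 with the replicate block and in 15 of 20 without the libraries with an unreduced target. For the allelic ratio in ExE, edgeR and limma called 96 and 37 genes in G9a-Glp, 237 and 154 in Eed, 66 and 14 in Dnmt1 and 83 and 17 in Rnf2. Without the libraries with an unreduced target these were 35 in Dnmt1 and 29 in Rnf2. Depth limits Platr4 in wild-type epiblast (12 to 52 reads in BDF1xCAST, 28 to 66 in CASTxBDF1), and the number of embryos limits Dnmt1 (3 a tissue).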
